A study of Mus musculus with 13 samples.

Results

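Gene expression was compared between Sec-Cre Apc-null and WT intestinal stem cells (ISCs) of the mouse ileum, by the labels of the single samples. These were 4 of the 13 libraries of the series, chosen by their group labels: 2 from Sec-Cre Apc-null mice (Atoh1CreERT2;Apcfl/fl;Lgr5DTR-GFP;Rosa26tdTomato) and 2 from WT mice (Apcfl/fl;Lgr5DTR-GFP;Rosa26tdTomato). The WT mice thus carried the floxed Apc alleles and both reporters as well, and lacked only the Cre. Adult mice of both groups received 2 doses of 1 mg tamoxifen, and cells were sorted by flow cytometry at 21 days (dpi in the labels). The Cre is driven by Atoh1, so that recombination starts in the secretory lineage. Lgr5DTR-GFP is a reporter and diphtheria toxin receptor placed at Lgr5, and Rosa26tdTomato a Cre-dependent red reporter. No source at hand describes the gate that defined an ISC, and the shared extraction protocol names the duodenum alone, so that the region rests on the sample labels. No label states that the 2 replicates of a group were separate animals, so that each p-value reflects the spread among the libraries, which may be technical.

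Apc scaffolds the complex that marks beta-catenin for degradation, and its loss leaves beta-catenin free to act with TCF/LEF factors on Wnt target genes. In the crypt, Wnt signalling maintains Lgr5-positive stem cells at the base and Notch signalling holds them back from secretory fate. Atoh1 commits daughter cells to the Paneth, goblet and enteroendocrine lineages. Cells that leave the crypt on the absorptive side become enterocytes, which carry the digestive enzymes, transporters and apolipoproteins of the villus. Secretory cells that lose Apc and return to a stem cell state are one proposed origin of intestinal tumours, and the series compares this driver with a stem cell driver.

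The libraries differed in quality together with the group. Gene counts totalled 11524335 and 45516228 in Sec-Cre Apc-null replicates 1 and 2, and 15573041 and 18609373 in WT replicates 1 and 2. Unmapped reads were 57.0% and 35.8% in the Sec-Cre libraries and 13.9% and 5.01% in the WT libraries. Levels are given as CPM, the count of a gene relative to the total of its library after scaling by TMM. That scaling lowered the effective size of Sec-Cre replicate 1 to 4457052 reads because its 10 most abundant genes held 51.0% of its counts, against 8.28%, 5.996% and 5.89% in Sec-Cre replicate 2, WT replicate 1 and WT replicate 2. Paneth cell genes made up 37.8% of the counts of Sec-Cre replicate 1, but 1.25% of Sec-Cre replicate 2, and 2.79% and 2.82% of the WT libraries. The groups also differed in sex-linked genes, which were looked at after the values were seen: Xist had 0 and 10 reads in the Sec-Cre libraries and 11062 and 14057 in WT, whereas Ddx3y had 369 and 1784 reads in Sec-Cre and 0 in both WT libraries. Apc genotype and the sex of the animals can therefore not be told apart here.

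Markers of the sorted population were present in all 4 libraries, beside those of other epithelial cells. The 35 genes of the crypt-base stem cell signature took 0.135% and 0.429% of the counts in Sec-Cre Apc-null and 1.00% and 0.984% in WT. The 36 enterocyte genes took 2.36% and 3.56% in Sec-Cre and 0.496% and 0.454% in WT. These are shares of unscaled counts. After TMM scaling the stem cell genes summed to 3493 and 4404 CPM in Sec-Cre and 8661 and 8467 CPM in WT. The enterocyte genes summed to 60925 and 36505 CPM in Sec-Cre and 4295 and 3905 CPM in WT. Immune genes were at 0.00209% and 0.00978% in Sec-Cre and 0.00818% and 0.00726% in WT, and 12 of the 25 stromal, endothelial and red blood cell genes, among them Col1a1, Col3a1, Kdr, Hba-a1 and Hbb-bs, had no read in any of the 4 libraries. In bulk RNA, more cells of a type and more RNA per cell cannot be told apart.

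**Figure D1:**
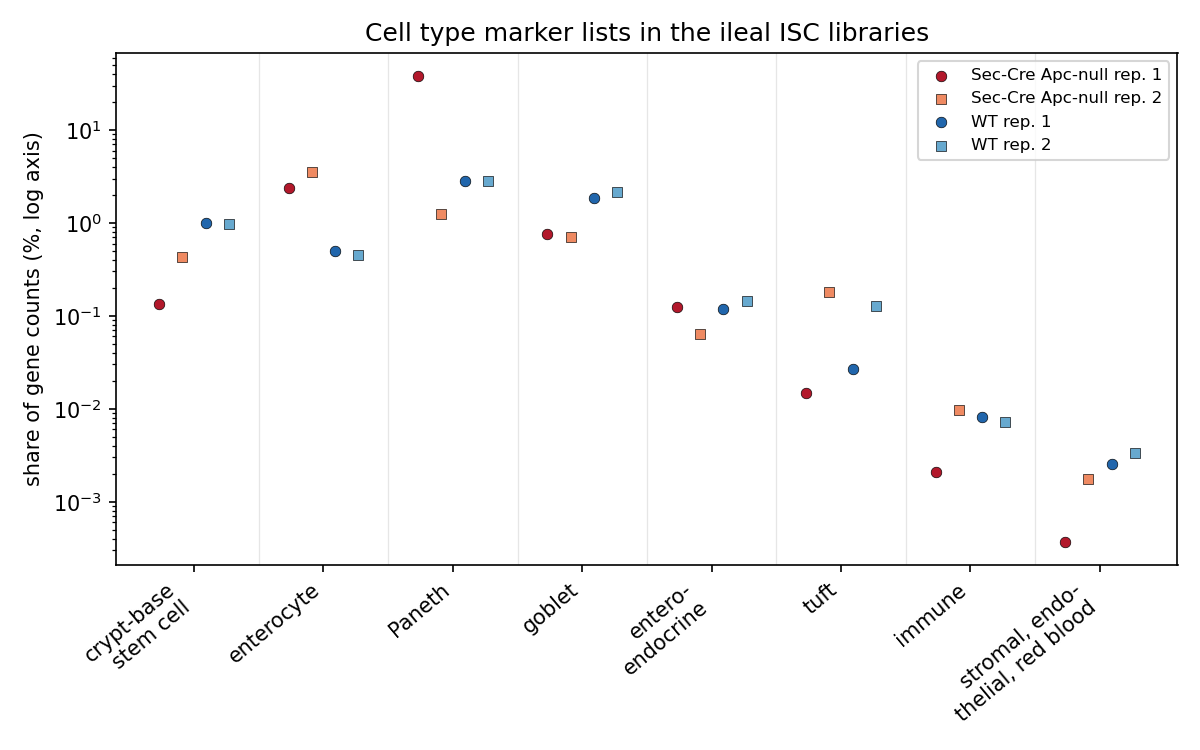
Share of gene counts (percent, log axis) taken by each cell type marker list in the 2 Sec-Cre Apc-null and 2 WT ileal ISC libraries, 1 point per library. Enterocyte genes lie higher in both Sec-Cre libraries (2.36% and 3.56%) than in both WT libraries (0.496% and 0.454%), stem cell genes lie lower, and Paneth genes reach 37.8% in Sec-Cre replicate 1 alone.

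Across all genes, 2417 of 14577 differed between Sec-Cre Apc-null and WT ileal ISCs at an adjusted p below 0.05 by edgeR's quasi-likelihood test with Benjamini-Hochberg adjustment over all genes (16.6%). Of these, 1403 were higher (9.62% of the genes tested) and 1014 lower (6.96%) in Sec-Cre. Both Sec-Cre libraries lay above both WT libraries for 29.2% of the genes and below both for 31.2%, so a member without overlap between the groups is common. The fit also held the 3 duodenal ISC libraries of the series, which are ISC-Cre Apc-null and were sampled at 14 dpi. They enter no contrast, but they bear on the spread, the scaling and the genes that pass the filter, of which the 4 ileal libraries alone left 12976. DESeq2 counts given below for all libraries are from these 7 ISC libraries with none left out. Beside an edgeR fit without 1 library, both the method and the libraries differ. The fitted spread among replicates (edgeR's coefficient of variation) was 0.4025 in the 7-library edgeR fit, and 0.3479 and 0.347 without Sec-Cre replicate 1 or 2. The part of this spread in the number of calls was not tested. Calls were fewest in the fits without WT replicate 1 and without WT replicate 2, where the spread was 0.4376 and 0.4377. Of the 179 list members called, 35 and 19 were left in these fits. Leaving out Sec-Cre replicate 1 or 2 gave 2590 and 3183 calls, and 845 of the 1403 higher genes and 536 of the 1014 lower genes were called in both of those fits. Higher genes were 58.0% of the calls, against 50.2% without Sec-Cre replicate 1 and 69.9% without WT replicate 1. Dropping duodenal replicate 1 or 2 gave 1423 and 1512 calls. In the 4 ileal libraries alone there were 1336, and the falls then numbered 6 among cell cycle, 5 among Notch, 4 among ribosome biogenesis, 4 among enteroendocrine and 2 among goblet genes, and the rises 3 among fetal genes. Of the 99 called genes printed or plotted by name, 80 passed with either Sec-Cre library left out and 19 in every alternative.

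**Figure D2:**
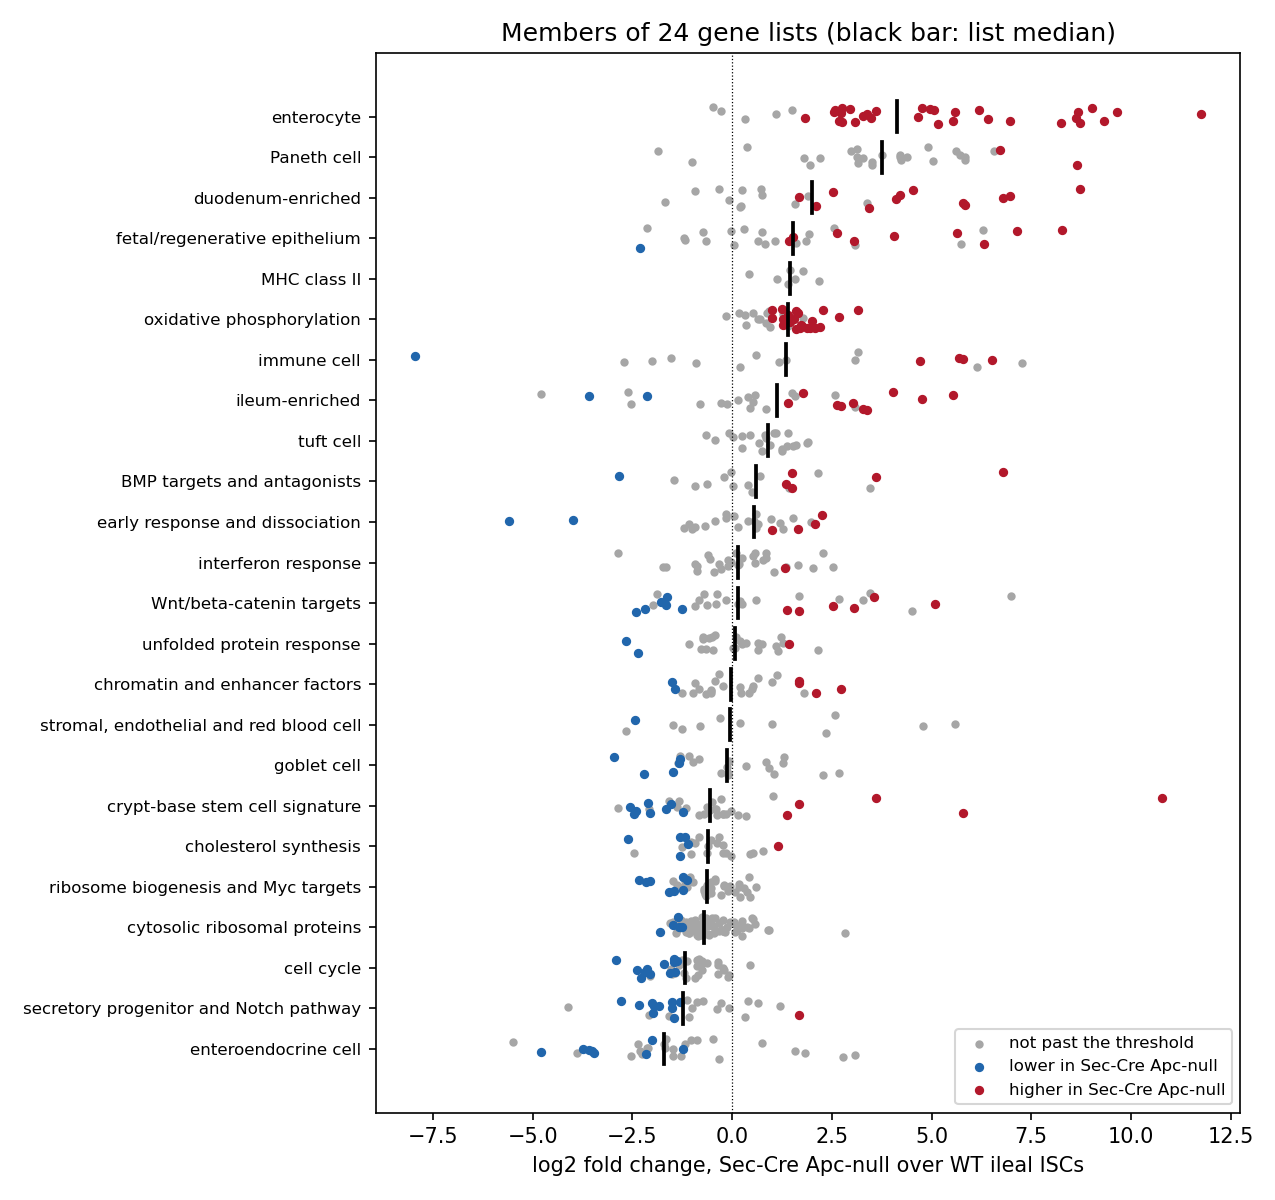
Fitted log2 fold change of each tested member of 24 gene lists, Sec-Cre Apc-null over WT ileal ISCs, in lists sorted by their median (black bar), with genes past the adjusted p of 0.05 in red (higher) and blue (lower). Enterocyte genes sit highest (median 4.15) and enteroendocrine, Notch and cell cycle genes lowest (medians -1.70, -1.22 and -1.18). Values of genes without a read in one group depend on the prior count.

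The deleted gene itself could not serve as a check. Apc (chromosome 18, GRCm38) was read at 97.6 and 43.3 CPM in Sec-Cre Apc-null and 102 and 113 CPM in WT, both Sec-Cre values below both WT values. The log2 fold change was -0.62 ± 0.52 (SE, n = 2 each) with an adjusted p of 0.435. The count covers the whole gene, whereas a recombined floxed allele loses only a part of it, so that the level says nothing of recombination. Atoh1, whose promoter drives the Cre, fell to 43.3 and 29.5 CPM in Sec-Cre, against 92.2 and 86.8 CPM in WT, without overlap (-1.30 ± 0.31, adjusted p = 0.0246). This call was lost without WT replicate 1 (adjusted p = 0.148), without WT replicate 2 (0.14), without duodenal replicate 1 (0.0541) and in the 4 ileal libraries alone (0.0554).

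Among the stem cell genes, Lgr5 itself did not pass the test, while several other crypt-base genes were lower. Lgr5, the R-spondin receptor that marks crypt-base stem cells, had 63.3 and 46.6 CPM in Sec-Cre Apc-null and 87.7 and 56.1 CPM in WT. These ranges overlap, and the log2 fold change was -0.39 ± 0.31 (adjusted p = 0.414), or 0.05 with a correction for transcript length. Its count can hold reads of the reporter allele, which was not tested. Smoc2, a matricellular protein of the crypt base, had 167.8 and 196.3 CPM in Sec-Cre and 233.8 and 196.4 CPM in WT (adjusted p = 0.7), and its difference also turned positive with that correction (0.06).

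Of the 35 stem cell genes tested, 8 fell and 5 rose, against 6.96% and 9.62% of all genes, with a median log2 fold change of -0.56. Slc12a2, a sodium-potassium-chloride cotransporter of crypt cells, was at 436 and 403 CPM in Sec-Cre and 1292 and 1109 CPM in WT (-1.52 ± 0.38, adjusted p = 0.0305). Lrig1, an inhibitor of ErbB receptors, was at 27.6 and 102 CPM in Sec-Cre and 282 and 265 CPM in WT (-2.06 ± 0.53, adjusted p = 0.0321), and Msi1, an RNA-binding protein, at 8.75 and 4.33 CPM in Sec-Cre and 24.96 and 29.5 CPM in WT (-2.12 ± 0.40, adjusted p = 0.0107). The groups did not overlap for any of these 3 genes. The other members that fell were Axin2, Car12, Ephb3, Aqp4 and Slc14a1. Car12, a carbonic anhydrase, had 11.4 and 22.1 CPM in Sec-Cre and 112 and 75.4 CPM in WT (-2.45 ± 0.41, adjusted p = 0.00777). By edgeR with a correction for transcript length, 6 members fell and 4 rose. Slc12a2 (adjusted p = 0.0886), Lrig1 (0.0785), Ephb3 (0.128) and Aqp4 (0.124) did not pass with that correction. In the 4 ileal libraries alone 3 members fell and 0 rose.

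Olfm4, a secreted glycoprotein that marks crypt-base cells and answers to Notch, was at 275 and 1130 CPM in Sec-Cre and 2697 and 3295 CPM in WT. The groups were apart, but the 2 Sec-Cre libraries differed among themselves, and the fold change of -2.09 ± 0.63 had an adjusted p of 0.0528. It passed in 11 of 19 alternative fits, with adjusted p from 0.002 to 0.192. The 5 members that rose were Gkn3, Sp5, Sox9, Fstl1 and Cyp2e1. Gkn3, a gastrokine reported in crypt-base cells, had 16.8 and 10.1 CPM in Sec-Cre and 0.5003 and 0 CPM in WT (5.79 ± 0.91, adjusted p = 0.00612). Cyp2e1, a cytochrome P450, had 71 and 94 reads in Sec-Cre and none in WT, at least 44.6-fold higher when reads are pooled over each pair and set against a floor of 3 reads over the WT pair. Where a WT replicate was left out, the calls that remained in the list were all rises. The 13 calls numbered 2 without WT replicate 1, 1 without WT replicate 2, 5 without duodenal replicate 1, 6 without duodenal replicate 2 and 3 in the 4 ileal libraries alone.

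Wnt/beta-catenin target genes did not move in 1 direction. Of 31 tested, 6 rose and 6 fell in Sec-Cre Apc-null ISCs, against 9.62% and 6.96% of all genes. The median log2 fold change was 0.14. Among those that fell was Axin2, a scaffold of the destruction complex and a general feedback target of the pathway. It had 72.0 and 34.0 CPM in Sec-Cre and 296 and 260 CPM in WT, so that both Sec-Cre libraries lay below both WT libraries (-2.40 ± 0.41, adjusted p = 0.00785). Ccnd1, cyclin D1, had 92.9 and 57.7 CPM in Sec-Cre and 299 and 383 CPM in WT (-2.18 ± 0.36, adjusted p = 0.00715). Ephb2, a receptor that positions cells along the crypt, had 50.5 and 41.6 CPM in Sec-Cre and 167.5 and 144.9 CPM in WT (-1.77 ± 0.27, adjusted p = 0.00552). These 3 groups of values were apart, as were those of the related receptor Ephb3 (-1.66 ± 0.46), the homeobox factor Prox1 (-1.62 ± 0.42) and the Wnt receptor Fzd7 (-1.25 ± 0.36).

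On the other side stood the targets that rose. Notum, a secreted enzyme that inactivates Wnt ligands, had 13.7 and 7.08 CPM in Sec-Cre and 0.778 and 0.925 CPM in WT (3.55 ± 0.47, adjusted p = 0.0039). Lef1, a TCF/LEF factor, had 12.3 and 3.18 CPM in Sec-Cre and 0.445 and 0 CPM in WT (5.09 ± 1.17, adjusted p = 0.0228). Sox9, a factor of crypt progenitors and Paneth cells, had 497 and 255.8 CPM in Sec-Cre and 119 and 114 CPM in WT (1.69 ± 0.47, adjusted p = 0.0405). In each case both Sec-Cre libraries were above both WT libraries, the higher value being that of Sec-Cre replicate 1, which also holds the Paneth transcripts. Sp5, a direct target that acts as a repressor, had 50.5 and 31.5 CPM in Sec-Cre and 12.9 and 18.6 CPM in WT (1.37 ± 0.36, adjusted p = 0.0352). Dkk3, a Dickkopf family protein, and the ligand Wnt6 rose by 2.53 ± 0.63 and 3.06 ± 0.69 on the log2 scale, at 5.61 and 4.13 CPM and at 6.73 and 2.91 CPM in Sec-Cre. For Sp5, Dkk3 and Wnt6 too, the higher value was that of Sec-Cre replicate 1. Without that library the log2 fold changes were 1.12 for Sox9, 0.98 for Sp5, 2.33 for Dkk3 and 2.41 for Wnt6.

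Several known targets were not called. Nkd1, a feedback inhibitor, had 39.0 and 9.99 CPM in Sec-Cre and 8.504 and 6.48 CPM in WT (adjusted p = 0.0752). Rnf43, which removes Wnt receptors from the surface, had 54.7 and 75.1 CPM in Sec-Cre and 128 and 102 CPM in WT (adjusted p = 0.113), and Myc 120 and 216 CPM in Sec-Cre and 127 and 97.4 CPM in WT (adjusted p = 0.293). Ascl2, a stem cell transcription factor under Wnt control, had 11.4 CPM in Sec-Cre replicate 1 and 49.0 CPM in Sec-Cre replicate 2, values that enclose the 33.8 and 34.4 CPM of WT. With a correction for transcript length 5 targets rose and 2 fell, the median was 0.06, and Ephb2 (adjusted p = 0.0508), Ephb3 (0.128), Prox1 (0.0708), Fzd7 (0.139) and Sp5 (0.121) did not pass. In the 4 ileal libraries alone 1 rose and 4 fell. Without Sec-Cre replicate 1, 3 targets rose and 5 fell, and without Sec-Cre replicate 2, 8 rose and 6 fell. Without WT replicate 1, 2 rose and 1 fell, and without WT replicate 2 edgeR called 0 of them, with 14 at an unadjusted p under 0.05, where DESeq2 in all libraries called 16. Without duodenal replicate 1 the calls were 4 rises and 3 falls. The counts of Notum and Ccnd1 are uncertain, since 33.0% and 22.3% of their 31-base words occur elsewhere.

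**Figure D3:**
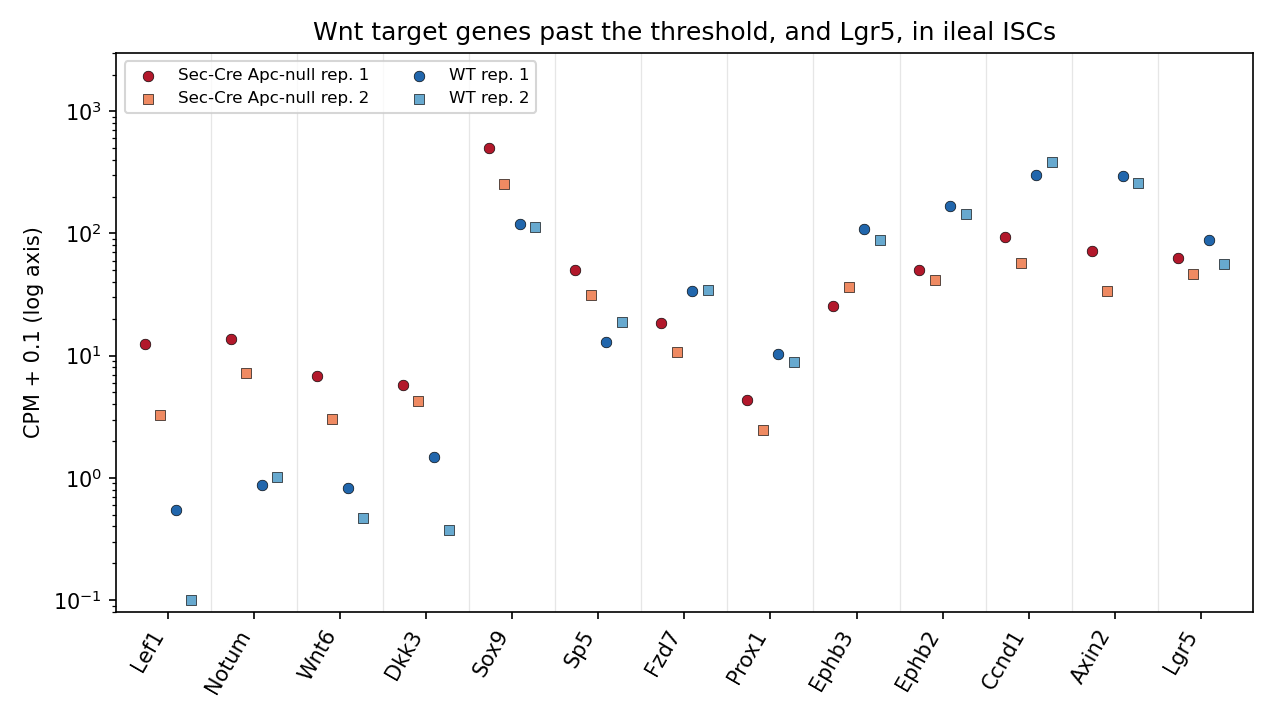
CPM + 0.1 (log axis) of the 12 Wnt target genes past the threshold, from the largest rise to the largest fall, and of Lgr5, in each Sec-Cre Apc-null and WT ileal ISC library, 1 point per library. Lef1, Notum, Wnt6, Dkk3, Sox9 and Sp5 lie above WT in both Sec-Cre libraries and Fzd7, Prox1, Ephb3, Ephb2, Ccnd1 and Axin2 below, while the Lgr5 values of the groups overlap.

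The promoters of a target from each side are shown to let their sequences be compared, as RefSeq gives them on GRCm38.p6 from 250 bases before to 50 bases after the start of the gene. Capitals mark the letters TCAAAG on either strand (written CTTTGA where the match is on the other), the core of the TCF/LEF site. Sp5 (chr2:70474673-70474972, plus strand), which rose, and Axin2 (chr11:108920099-108920398, plus strand), which fell, read as follows.
Sp5: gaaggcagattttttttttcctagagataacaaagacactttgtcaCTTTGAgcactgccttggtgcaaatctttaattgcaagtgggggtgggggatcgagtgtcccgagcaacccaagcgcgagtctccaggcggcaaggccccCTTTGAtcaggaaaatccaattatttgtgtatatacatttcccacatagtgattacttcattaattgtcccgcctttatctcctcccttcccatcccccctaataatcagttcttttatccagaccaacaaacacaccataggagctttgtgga
Axin2: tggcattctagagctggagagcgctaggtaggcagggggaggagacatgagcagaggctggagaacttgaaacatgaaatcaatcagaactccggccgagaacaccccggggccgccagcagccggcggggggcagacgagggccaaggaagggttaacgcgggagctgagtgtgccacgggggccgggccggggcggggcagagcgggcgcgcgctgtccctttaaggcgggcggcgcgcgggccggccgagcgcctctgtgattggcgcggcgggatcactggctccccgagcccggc
The core occurs 2 times in the Sp5 window and at no position of the Axin2 window. It was found in 16.0% of all 32851 promoters of the table, in 2 of 6 promoters of the 3 risen targets that the table lists, and in 0 of 6 promoters of the 5 fallen ones. These letters say nothing of binding, and sites outside the window were not searched.

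Enterocyte genes had the highest median of the lists. Of 36 tested, 31 rose in Sec-Cre Apc-null ISCs, against 9.62% of all genes, and the list's median log2 fold change was 4.15. Apoa4, an apolipoprotein of chylomicrons, had 3234 and 2660 CPM in Sec-Cre and 1.00 and 0.694 CPM in WT (11.76 ± 1.04, adjusted p = 0.00158), the largest rise among the genes that met the naming rule, although 64.5% of its 31-base words occur elsewhere and its count is uncertain. Creb3l3, a membrane-bound factor of lipid metabolism, had 546.5 and 366.7 CPM in Sec-Cre and 0.222 and 0.879 CPM in WT (9.64 ± 0.87, adjusted p = 0.00158). Ace, the angiotensin-converting enzyme of the brush border, had 593 and 591 CPM in Sec-Cre and 18.1 and 15.1 CPM in WT (5.16 ± 0.40, adjusted p = 0.0013). For all 3 genes both Sec-Cre libraries lay far above WT, and they differed from each other by less than they did from WT.

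Transport and digestion genes rose together with these. Slc2a5, the fructose transporter, had 169 and 254 CPM in Sec-Cre and 7.06 and 6.57 CPM in WT (4.96 ± 0.54, adjusted p = 0.00281). Rbp2, a retinol carrier of the absorptive cell, had 4961 and 1865 CPM in Sec-Cre and 3.50 and 13.1 CPM in WT (8.68 ± 1.05, adjusted p = 0.00327). Fabp1, a fatty acid carrier, had 5797 and 2282 CPM in Sec-Cre and 1.00 and 18.0 CPM in WT (8.72 ± 1.53, adjusted p = 0.00888), and Alpi, the intestinal alkaline phosphatase of the brush border, 618 and 872 CPM in Sec-Cre and 13.7 and 17.3 CPM in WT (5.58 ± 0.66, adjusted p = 0.00309). By the naming rule further large rises were Apoa1 (8.24), Apoc3 (9.03), the glucose transporter Slc2a2 (8.63), the lactate transporter Slc5a12 (10.41), the antimicrobial peptide gene Leap2 (9.65) and the cytochromes Cyp2b10 (10.29) and Cyp3a11 (9.32), all as log2 fold changes with adjusted p of at most 0.0105. Single WT libraries moved these values: Slc5a12 was at 14.95 without WT replicate 1 and 9.32 without WT replicate 2, and Cyp3a11 at 14.44 and 8.23. In those fits the calls of Slc5a12, Cyp3a11 and Apoc3 were lost (adjusted p from 0.0596 to 0.0863), and without WT replicate 2 also those of Apoa1, Slc2a2 and Leap2 (0.0524 to 0.0554).

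The 5 enterocyte genes that did not pass, named after their values were seen, were Fabp6, Mgam, Mep1a, Vil1 and Slc10a2. Fabp6, the ileal bile acid carrier, had 37.5 and 342 CPM in Sec-Cre and 321 and 141 CPM in WT, so that the WT values lay inside the Sec-Cre range. Mgam, the maltase-glucoamylase, had 1087 and 562.5 CPM in Sec-Cre and 1243 and 1061 CPM in WT, and Vil1, the microvillus protein villin, 1431 and 1481 CPM in Sec-Cre and 671 and 693 CPM in WT (adjusted p = 0.102). The count of 31 was the same with Sec-Cre replicate 1 left out, with Sec-Cre replicate 2 left out, with a correction for transcript length and in the 4 ileal libraries alone. It was 12 without WT replicate 1 and 8 without WT replicate 2. The part of the sort gate in the enterocyte level was not tested.

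Promoters of 2 risen enterocyte genes, Rbp2 (chr9:98490287-98490586, plus strand) and Alpi (chr1:87101557-87101856, minus strand), are shown with TCAAAG (either strand) in the first and CAAAGTCCA, the binding motif of HNF4 factors of the absorptive lineage, in the second in capitals.
Rbp2: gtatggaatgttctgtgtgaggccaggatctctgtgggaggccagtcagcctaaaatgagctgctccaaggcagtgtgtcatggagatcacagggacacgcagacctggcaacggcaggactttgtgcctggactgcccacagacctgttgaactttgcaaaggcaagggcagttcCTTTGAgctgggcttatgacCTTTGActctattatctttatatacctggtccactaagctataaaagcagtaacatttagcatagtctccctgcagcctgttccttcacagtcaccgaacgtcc
Alpi: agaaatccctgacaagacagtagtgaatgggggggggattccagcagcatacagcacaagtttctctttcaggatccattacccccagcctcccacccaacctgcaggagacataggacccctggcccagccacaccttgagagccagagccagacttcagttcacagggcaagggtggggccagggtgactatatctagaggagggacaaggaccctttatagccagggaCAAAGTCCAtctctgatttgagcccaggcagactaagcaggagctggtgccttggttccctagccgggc
CAAAGTCCA, which can overlap TCAAAG by 5 letters, was found on either strand in 0.475% of all promoters and in 3 of 27 promoters (11.1%) of the 25 risen enterocyte genes that the table lists. TCAAAG was found in 5 of these 27 (18.5%), close to the 16.0% of all promoters. Hnf4g, an HNF4 factor, rose to 477 and 432 CPM in Sec-Cre, against 132 and 150 CPM in WT (1.69 ± 0.36, adjusted p = 0.0176). Whether HNF4 factors had a part in the enterocyte rises was not tested.

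Secretory lineages did not move as 1 group. Paneth cell genes had the next highest median (3.77), but only Defa24 and Clps of 27 rose, against 9.62% of all genes. Lyz1, the Paneth lysozyme, had 257938 CPM in Sec-Cre replicate 1, 3899 CPM in Sec-Cre replicate 2, and 8609 and 5593 CPM in WT. The value of Sec-Cre replicate 1 was far above WT and that of Sec-Cre replicate 2 below both. Ang4, an antimicrobial ribonuclease, had 55901 and 1309 CPM in Sec-Cre and 952 and 802 CPM in WT, and Pla2g2a, a bactericidal phospholipase, 168006 and 57.5 CPM in Sec-Cre and 3549 and 5323 CPM in WT. Clps, colipase, had 21308 and 198 CPM in Sec-Cre and 121 and 84.6 CPM in WT (6.71 ± 1.76, adjusted p = 0.0346). The count of rises depended on the fit: it was 14 by DESeq2, 15 with all 13 libraries, 12 without a filter on low counts and 19 without Sec-Cre replicate 2. By edgeR it was 0 with a correction for transcript length (9 genes at an unadjusted p under 0.05), in the 4 ileal libraries alone (8), without WT replicate 1 (5), without WT replicate 2 (11), without duodenal replicate 2 (15), without duodenal replicate 3 (13) and without Sec-Cre replicate 1 (4), and in each of these last fits, duodenal replicate 3 and Sec-Cre replicate 1, 1 gene fell. Without duodenal replicate 1 it was 1. The calls of Clps and Defa24 were each lost in 10 of 18 alternatives, Clps with a fold change of 0.93 without Sec-Cre replicate 1. Reads of the alpha-defensins are uncertain, since these genes share most of their sequence: 57.1% of the 31-base words of Defa24 occur in other genes, as do 34.2% of those of Lyz1.

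Goblet and enteroendocrine genes were lower where they passed in the edgeR fit of the 7 ISC libraries. Of 23 goblet genes 5 fell, against 6.96% of all genes, with a list median of -0.13. Fcgbp, a mucus protein, had 574 and 1291 CPM in Sec-Cre and 6540 and 8071 CPM in WT (-2.97 ± 0.59, adjusted p = 0.0132). Galnt12, which starts mucin glycosylation, had 54.7 and 60.7 CPM in Sec-Cre and 156 and 166 CPM in WT (-1.48 ± 0.28, adjusted p = 0.0118), and Bcas1 fell by 2.21 ± 0.45. Of 32 enteroendocrine genes 8 fell, against the same 6.96%, with a list median of -1.70. Gcg, the proglucagon gene of L cells, had 7.63 and 1.13 CPM in Sec-Cre and 92.0 and 115 CPM in WT (-4.78 ± 1.01, adjusted p = 0.0165).

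Insm1, an early endocrine transcription factor, had 2.24 and 1.31 CPM in Sec-Cre and 17.9 and 20.6 CPM in WT (-3.51 ± 0.60, adjusted p = 0.00796). The granule proteins Chgb (-2.01 ± 0.43) and Chga (-1.22 ± 0.29) also fell, with no overlap between the groups. Among the tuft cell genes, Matk, a kinase, had 14.6 and 312 CPM in Sec-Cre replicates 1 and 2 and 7.23 and 102 CPM in WT replicates 1 and 2, low in replicate 1 and high in replicate 2 of both groups. Of 22 tuft genes edgeR called 0 in the fit of the 7 ISC libraries, with 0 at an unadjusted p under 0.05, 0 by DESeq2 and 0 by limma voom. The tuft list varied within both groups, at 0.0148% and 0.180% of the counts in Sec-Cre and 0.0268% and 0.128% in WT. Without WT replicates 1 and 2 in turn edgeR called 0 goblet genes (5 and 5 at an unadjusted p under 0.05) and 0 enteroendocrine genes (16 and 12), where DESeq2 in all libraries called 6 and 15. Without Sec-Cre replicate 2 there were 7 rises and 5 falls of goblet genes, without Sec-Cre replicate 1 there were 8 falls, and without duodenal replicate 1 there were 3. Enteroendocrine falls numbered 4 without duodenal replicate 1 and 4 without duodenal replicate 2. The DESeq2 calls were 1 rise and 5 falls of goblet genes, and 3 rises and 12 falls of enteroendocrine genes. Summed over the list, enteroendocrine genes were at 3249 and 656.9 CPM in Sec-Cre replicates 1 and 2 and 1026 and 1231 CPM in WT.

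Genes of the Notch pathway and of secretory progenitors were mostly lower. Of 26 tested, 10 fell and 1, Sox9, rose, against 6.96% and 9.62% of all genes, and the list median was -1.22. The log2 fold change of Sox9 was 1.12 without the Paneth-rich Sec-Cre replicate 1. Notch1, the receptor, had 25.6 and 26.1 CPM in Sec-Cre and 95.4 and 88.3 CPM in WT (-1.83 ± 0.28, adjusted p = 0.00595). Dll1, a ligand of secretory progenitors, had 33.4 and 39.4 CPM in Sec-Cre, against an average of 100.4 ± 0.621 CPM in WT (SD, n = 2; -1.46 ± 0.28, adjusted p = 0.0122). The 2 Sec-Cre values were close to each other for both genes and below WT. Mib1, the ligase that activates Notch ligands, and Notch2 fell by 2.79 ± 0.50 and 2.02 ± 0.37 on the log2 scale. The 10 falls became 9 without Sec-Cre replicate 1, 11 without Sec-Cre replicate 2 and 5 without duodenal replicate 1. By edgeR they were 0 without WT replicate 1 and 0 without WT replicate 2, with 13 and 14 genes at an unadjusted p under 0.05, where DESeq2 in all libraries called 14 falls.

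Proliferation genes were lower in Sec-Cre Apc-null ISCs. Of 40 cell cycle genes 12 fell, against 6.96% of all genes, with a list median of -1.18. For 36 of the 40 both Sec-Cre libraries lay below both WT libraries, against 31.2% of all genes. Mki67, the proliferation antigen, had 68.9 and 81.1 CPM in Sec-Cre and 553 and 571 CPM in WT (-2.90 ± 0.45, adjusted p = 0.00606). Top2a, topoisomerase II of dividing cells, had 105.9 and 80.1 CPM in Sec-Cre and 433 and 379 CPM in WT (-2.13 ± 0.30, adjusted p = 0.00458), and Kif11, a spindle motor, 19.3 and 29.5 CPM in Sec-Cre and 132 and 126 CPM in WT (-2.39 ± 0.39, adjusted p = 0.00707). The groups were apart for these 3 genes and for all but Ccnd3, Cdk4, Tyms and Birc5, which were picked out after their values were seen. Ribosome biogenesis and Myc target genes showed 8 falls of 40, against 6.96% of all genes, and a median of -0.63.

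Utp20, a factor of the small ribosomal subunit, had 16.6 and 18.5 CPM in Sec-Cre and 89.8 and 88.9 CPM in WT (-2.34 ± 0.26, adjusted p = 0.00287). Heatr1, another ribosome biogenesis factor, and Cad, the enzyme that starts pyrimidine synthesis, fell by 2.16 ± 0.29 and 2.05 ± 0.29. With Sec-Cre replicate 1 left out 11 cell cycle and 7 ribosome biogenesis genes fell, and with Sec-Cre replicate 2 left out 27 and 13. Without WT replicate 1 the counts were 2 and 3, and without WT replicate 2 edgeR called 0 and 1, with 17 and 12 at an unadjusted p under 0.05, where DESeq2 in all libraries called 18 and 14. The ribosome biogenesis count was 4 without duodenal replicate 1 and 4 without duodenal replicate 2.

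Genes of the fetal or regenerative epithelium were more often higher than lower. Of 29 tested, 9 rose, against 9.62% of all genes, and 1, the tight junction protein Cldn4 (-2.30 ± 0.58), fell, against 6.96%. The median was 1.52, and also 1.52 with genes lacking reads in one group set at their bound. Il33, an alarmin cytokine, had 12.8 and 18.1 CPM in Sec-Cre and 0.445 and 0.185 CPM in WT (5.65 ± 0.52, adjusted p = 0.00158). Clu, clusterin, a marker of revival stem cells, had 29.8 and 61.5 CPM in Sec-Cre and 2.28 and 3.24 CPM in WT (4.05 ± 0.64, adjusted p = 0.00625). Emp1, a membrane protein, had 114 and 108.5 CPM in Sec-Cre and 21.3 and 14.5 CPM in WT (2.63 ± 0.36, adjusted p = 0.00416).

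Ly6d, a surface protein, had 12 and 263 reads in Sec-Cre and 2 and 0 in WT, a ratio of 112 with a counting interval of 30.6 to 926. Ly6a, a common mark of the fetal state, overlapped between the groups at 3.81 and 11.1 CPM in Sec-Cre and 4.84 and 20.5 CPM in WT, and was added after its values were seen. The 9 rises were 11 without Sec-Cre replicate 1 and 10 without Sec-Cre replicate 2, but 3 without WT replicate 1 and 2 without WT replicate 2.

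BMP targets, which mark cells that approach the villus, had 5 rises and 1 fall among 18, against 9.62% and 6.96% of all genes. Id1, an inhibitor of bHLH factors, had 155 and 193 CPM in Sec-Cre and 58.2 and 65.6 CPM in WT (1.49 ± 0.36, adjusted p = 0.0261), and Smad7, a feedback inhibitor, 51.1 and 58.5 CPM in Sec-Cre and 22.7 and 19.9 CPM in WT (1.36 ± 0.30, adjusted p = 0.0195). Id2, its relative, had 98.9 and 65.8 CPM in Sec-Cre and 31.4 and 26.7 CPM in WT (adjusted p = 0.0213), and Id4 fell by 2.84 ± 0.61. In the 4 ileal libraries the groups were apart for each of them. With a correction for transcript length the rises numbered 2, without duodenal replicates 1 and 2 they numbered 2 and 3, without WT replicate 1 they numbered 1, and without WT replicate 2 edgeR called 0, with 6 genes at an unadjusted p under 0.05, where DESeq2 in all libraries called 7.

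Rises were found among genes typical of either end of the small intestine. Of 24 duodenum-enriched genes 12 rose, with a median of 2.00, and of 28 ileum-enriched genes 10 rose, 2 fell and 16 did not pass, with a median of 1.13, against 9.62% higher and 6.96% lower of all genes. Onecut2, a duodenal transcription factor, had 205 and 53.7 CPM in Sec-Cre and 0.667 and 1.62 CPM in WT (6.79 ± 0.81, adjusted p = 0.00309). Gata4, which specifies the proximal intestine, had 79.9 and 171 CPM in Sec-Cre and 15.1 and 43.7 CPM in WT (2.10 ± 0.54, adjusted p = 0.0332). The call did not hold when Sec-Cre replicate 2 was left out (1.44, adjusted p = 0.103), without WT replicate 1 (1.53, 0.163), without WT replicate 2 (3.05, 0.0548), without duodenal replicates 1 and 2 in turn (0.0548 and 0.0549) and in the 4 ileal libraries alone (0.0958). Adh1, an alcohol dehydrogenase, had 836 and 873 CPM in Sec-Cre and 18.7 and 55.5 CPM in WT (4.53 ± 0.57, adjusted p = 0.00357). The Sec-Cre libraries were above WT for each of the 3 genes.

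On the ileal side, Slc51a and Slc51b, the pair that exports bile acids, rose by 2.72 ± 0.49 and 4.75 ± 0.70. Mep1b, a brush border protease, had 584 and 576 CPM in Sec-Cre and 64.0 and 55.2 CPM in WT (3.28 ± 0.47, adjusted p = 0.00494). Guca2b, uroguanylin, had 6142 and 1050 CPM in Sec-Cre and 72.4 and 80.6 CPM in WT (5.55 ± 0.86, adjusted p = 0.00591). Several of these genes are also enterocyte genes. Whether the regions sampled were the same in both groups was not tested. The duodenal count was 6 without WT replicate 1 and 6 without WT replicate 2, and the ileal rises 1 and 0 by edgeR, with 14 and 14 ileal genes at an unadjusted p under 0.05 and 12 rises by DESeq2 in all libraries.

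The largest falls included heat shock genes. Hspa1a, an inducible Hsp70, had 7.18 and 7.51 CPM in Sec-Cre and 295 and 416 CPM in WT (-5.59 ± 0.34, adjusted p = 0.00119). Hspa1b, its near-identical neighbour, had 21.1 and 49.2 CPM in Sec-Cre and 490 and 633 CPM in WT (-3.98 ± 0.44, adjusted p = 0.00281). The split of reads between the 2 genes is uncertain, since 70.1% and 68.1% of their 31-base words occur elsewhere, but both lay well below WT in both Sec-Cre libraries. Thbs1, thrombospondin 1, had 56.5 and 14.4 CPM in Sec-Cre and 572 and 297 CPM in WT (-3.64 ± 0.71, adjusted p = 0.0122). Other large falls were Tatdn2 (-4.16 ± 0.57), Ssh3, a cofilin phosphatase (-3.97 ± 0.28), Ddx23, a splicing helicase (-3.93 ± 0.37), and Ptch1, the Hedgehog receptor (-3.31 ± 0.45).

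Other early response genes went the opposite way or did not pass. Of 27 early response and dissociation genes 4 rose, against 9.62% of all genes. Hspa1a and Hspa1b were the 2 that fell, a share near the 6.96% of all genes, and the median was 0.56. Socs3, an inhibitor of cytokine signalling, had 115 and 99.2 CPM in Sec-Cre and 27.01 and 24.2 CPM in WT (2.07 ± 0.28, adjusted p = 0.00412), and Nfkbia, the NF-kappaB inhibitor, rose by 2.26 ± 0.38. Both falls were called without WT replicate 1 and without WT replicate 2, and the rises were then 1 and 0 by edgeR, with 8 and 6 genes at an unadjusted p under 0.05 and 7 rises by DESeq2 in all libraries. Of 26 genes of the unfolded protein response 2 fell, a share near the 6.96% of all genes, Hyou1 (-2.37 ± 0.35) and Ern1 (-2.65 ± 0.43), and 1, Herpud1, rose (1.42 ± 0.39). Without WT replicate 1 there was 1 call, a fall, and without WT replicate 2 edgeR called 0, with 2 at an unadjusted p under 0.05, where DESeq2 in all libraries called 4. Without Sec-Cre replicate 2 there were 5 rises and 2 falls.

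Gene length ran with the difference between the groups. Across 14475 genes with a length, the median difference in log2(CPM + 0.5) from the WT mean was 1.24 and 0.64 in Sec-Cre replicates 1 and 2 for the 827 genes whose transcripts are under 1 kb, and -0.40 and -0.67 for the 1957 genes over 6 kb. Between the WT replicates it was 0.02 and 0.01. The Spearman correlation across genes was -0.317 and -0.394 in the 2 Sec-Cre libraries and -0.001 between the WT libraries. The part of RNA quality in this trend was not tested. The nuclear RNA Malat1, chosen after its values were seen, rose to 4476 and 3252 CPM in Sec-Cre, against 99.55 and 138 CPM in WT (5.02 ± 0.72, adjusted p = 0.00488). Lars2, a mitochondrial tRNA synthetase gene kept as a quality value, had 222429 and 17042 CPM in Sec-Cre and 578 and 482 CPM in WT, and the ribosomal RNA precursor Rn45s 269342 and 21057 CPM in Sec-Cre and 4490 and 4935 CPM in WT.

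**Figure D4:**
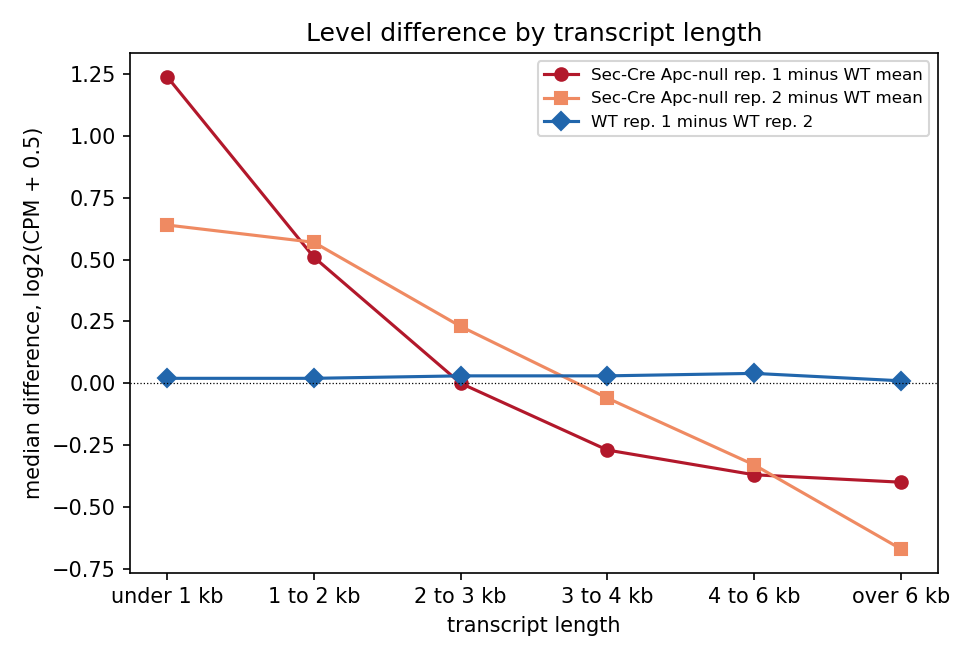
Median difference in log2(CPM + 0.5) by transcript length class for each Sec-Cre Apc-null replicate against the mean of WT, and for WT replicate 1 against WT replicate 2. The Sec-Cre lines fall with length (from 1.24 to -0.40 and from 0.64 to -0.67 between the shortest and the longest class), and the WT line stays between 0.01 and 0.04.

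Groups of short genes need to be read beside that trend. Of 36 oxidative phosphorylation genes 22 rose, against 9.62% of all genes, with a median of 1.39. Sdhb, a subunit of complex II, had 832 and 755.5 CPM in Sec-Cre and 168 and 179 CPM in WT (2.20 ± 0.30, adjusted p = 0.00412), and the short genes Uqcrb, Cycs and Ndufa1 rose by 2.69 ± 0.37, 2.01 ± 0.29 and 3.15 ± 0.48. The counts of Uqcrb and Cycs are uncertain (34.8% and 29.4% of words shared). With a correction for transcript length 9 rises and a median of 0.52 were left, and without WT replicate 1 and without WT replicate 2 edgeR called 0 and 0, with 19 and 21 at an unadjusted p under 0.05, where DESeq2 in all libraries called 27.

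Cytosolic ribosomal protein genes, which are short as well, fell in 5 of 77 cases, a share near the 6.96% of all genes, with a median of -0.70. Rps7 had 309 and 258 CPM in Sec-Cre and 784 and 646 CPM in WT (-1.33 ± 0.32, adjusted p = 0.0276), and Rpl12 264 and 106.0 CPM in Sec-Cre and 698 and 605 CPM in WT (-1.82 ± 0.47, adjusted p = 0.0327). Correction for length made the falls 36 and the median -1.56. Without Sec-Cre replicate 1 there were 46 falls and without Sec-Cre replicate 2 there were 2. By edgeR there were 0 without WT replicate 1, 0 without WT replicate 2, 0 without duodenal replicate 1, 0 without duodenal replicate 2 and 0 in the 4 ileal libraries alone, with 8, 9, 9, 11 and 10 genes at an unadjusted p under 0.05, where DESeq2 in all libraries called 10. Ribosomal protein genes have many pseudogenes, so that their counts are uncertain.

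Among cholesterol synthesis genes 5 of 24 fell, against 6.96% of all genes, and 1, Sc5d (1.14 ± 0.29), rose, against 9.62%. The list median was -0.62. Sc5d, a sterol desaturase, had 87.0 and 120.0 CPM in Sec-Cre and 46.0 and 47.9 CPM in WT, without overlap (adjusted p = 0.0301). It did not pass without Sec-Cre replicate 2 (0.88, adjusted p = 0.0608), without either WT library (0.182 and 0.189), without duodenal replicates 1 and 2 in turn (0.0654 and 0.0531) or in the 4 ileal libraries alone (0.0583). In those 4 libraries edgeR called 0 of the 24 genes, with 9 at an unadjusted p under 0.05, against 9 called by DESeq2 in all libraries. The falls numbered 2 with a correction for length, 11 without Sec-Cre replicate 2, and 1 and 2 without duodenal replicates 1 and 2. Without WT replicates 1 and 2 in turn edgeR called 0 genes, with 7 and 5 at an unadjusted p under 0.05, where DESeq2 in all libraries called 9.

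Of 26 chromatin and enhancer factors 4 rose (Tcf7l2, Hnf4g, Gata4 and Sox9), against 9.62% of all genes. Sox9 was at a log2 fold change of 1.12 without Sec-Cre replicate 1. The 2 that fell (Kdm6a and Foxa2) were a share near the 6.96% of all genes, and the median was -0.03. Tcf7l2, the TCF factor that partners beta-catenin in the intestine, had 284 and 123 CPM in Sec-Cre and 29.7 and 32.0 CPM in WT (2.72 ± 0.58, adjusted p = 0.017). Kdm6a, a histone demethylase on the X chromosome, had 28.7 and 21.7 CPM in Sec-Cre and 70.2 and 73.1 CPM in WT (-1.51 ± 0.38, adjusted p = 0.0301). Its part in the sex difference above was not tested. Tcf7l2 missed the threshold without Sec-Cre replicate 1 (adjusted p = 0.0512), and the 6 calls numbered 3 without duodenal replicate 1 and 2 without duodenal replicate 2. Without WT replicates 1 and 2 in turn edgeR called 0 genes, with 8 and 7 at an unadjusted p under 0.05, where DESeq2 in all libraries called 9.

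MHC class II genes lay above WT in both Sec-Cre libraries for 7 of 7 members, against 29.2% of all genes, but none passed. Cd74, the invariant chain, had 2722 and 2964 CPM in Sec-Cre and 861 and 1045 CPM in WT (1.58 ± 0.85, adjusted p = 0.229), and H2-Ab1 2040 and 1557 CPM in Sec-Cre and 353 and 444 CPM in WT (2.17 ± 0.65, adjusted p = 0.0515). The edgeR test called 0 of the 7, with 4 at an unadjusted p under 0.05, 3 called by DESeq2 and 4 by limma voom, and it called 4 in the 4 ileal libraries alone. Of 31 interferon response genes 1 rose, below the 9.62% of all genes, the immunoproteasome subunit Psmb8, at 434 and 409 CPM in Sec-Cre and 133 and 205 CPM in WT (1.32 ± 0.34, adjusted p = 0.0342), and it passed in 11 of 19 alternative fits, with an adjusted p of 0.0602 without Sec-Cre replicate 1, 0.228 without WT replicate 1, 0.115 without WT replicate 2 and 0.134 with a correction for length.

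Immune genes that passed were more often higher than lower in Sec-Cre. Of 17 tested, 4 rose (Gzma, Cd3e, Nkg7 and Gzmb) and 1, Itgax, fell, against 9.62% and 6.96% of all genes. The list median was 1.34. Gzma, granzyme A, had 16.4 and 22.3 CPM in Sec-Cre and 0.723 and 0 CPM in WT (5.78 ± 1.18, adjusted p = 0.0147). Cd3e, a part of the T cell receptor, had 13 and 119 reads in Sec-Cre and 1 and 0 in WT, a ratio of 107 with a counting interval of 18.9 to 4263. Ptprc, the common leukocyte antigen, overlapped between the groups, at 7.18 and 19.5 CPM in Sec-Cre and 3.06 and 8.93 CPM in WT. Of the 12 stromal genes tested Vim alone fell, a share near the 6.96% of all genes. It was at 1.57 and 2.21 CPM in Sec-Cre and 9.01 and 12.5 CPM in WT (-2.43 ± 0.44, adjusted p = 0.0095). In the 4 ileal libraries alone edgeR called 0 of the 17, with 6 at an unadjusted p under 0.05 and Gzma at an adjusted p of 0.0567, whereas DESeq2 with the duodenal libraries included called 5 rises and 2 falls. The rises numbered 2 with a correction for length, 2 without Sec-Cre replicate 2, 2 without each of WT replicate 1, duodenal replicate 1 and duodenal replicate 2, and 1 without WT replicate 2. The Vim call was lost without WT replicate 1 and without WT replicate 2.

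The series also holds whole organoids of the same driver, grown from ileal crypts plated 10 days after tamoxifen (Atoh1CreERT2;Apcfl/fl;Rosa26tdTomato, against a genotype given only as WT), 2 libraries in each group. Their WT libraries are not those of the sorted cells. Whether the Sec-Cre effect differed between the materials was tested as an interaction in 1 fit of all 13 libraries, and 13% of 15208 genes had a higher and 13.4% a lower effect in sorted ISCs. Of 31 Wnt targets 18 had a lower effect in sorted ISCs, and of 36 enterocyte genes 35 had a higher one. Axin2, on the scale of that fit, had 79.0 and 37.9 CPM in Sec-Cre and 330 and 285 CPM in WT ISCs, but 822 and 789 CPM in Sec-Cre and 222 and 393 CPM in WT organoids. It was thus below WT in sorted cells and above WT in organoids, and the interaction was -3.80 ± 0.51 on the log2 scale (adjusted p = 0.000258).

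Notum was above WT in both materials, with 15.02 and 7.88 CPM in Sec-Cre and 0.867 and 1.01 CPM in WT ISCs, and 458 and 238 CPM in Sec-Cre and 1.05 and 0.222 CPM in WT organoids (interaction -5.67 ± 0.86, adjusted p = 0.000596). Creb3l3 had 599.9 and 408 CPM in Sec-Cre and 0.248 and 0.962 CPM in WT ISCs, but 0.169 and 0.118 CPM in Sec-Cre and 22.1 and 23.7 CPM in WT organoids (interaction 16.91 ± 0.98, adjusted p = 2.59e-06). Apoa4 had no read in the Sec-Cre organoids, at 299.7 and 135.7 CPM in WT organoids. Genes of this comparison were chosen after their values were seen. For Lgr5 the interaction was -0.31 ± 0.49 (adjusted p = 0.709), for Atoh1 0.56 ± 0.35 (0.264) and for Apc -1.03 ± 0.61 (0.243). Organoid libraries of both groups had Ddx3y reads, at 52.9 and 60.2 CPM in Sec-Cre and 61.2 and 46.5 CPM in WT, so that the Y-linked reads separate the groups in the sorted cells and not in the organoids. The calls of Axin2, Notum and Creb3l3 passed in each of the 12 alternative fits, and the total of 4013 calls ranged between 2513 without Sec-Cre organoid replicate 1 and 4949 by DESeq2, with 2571 without Sec-Cre organoid replicate 2.

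**Figure D5:**
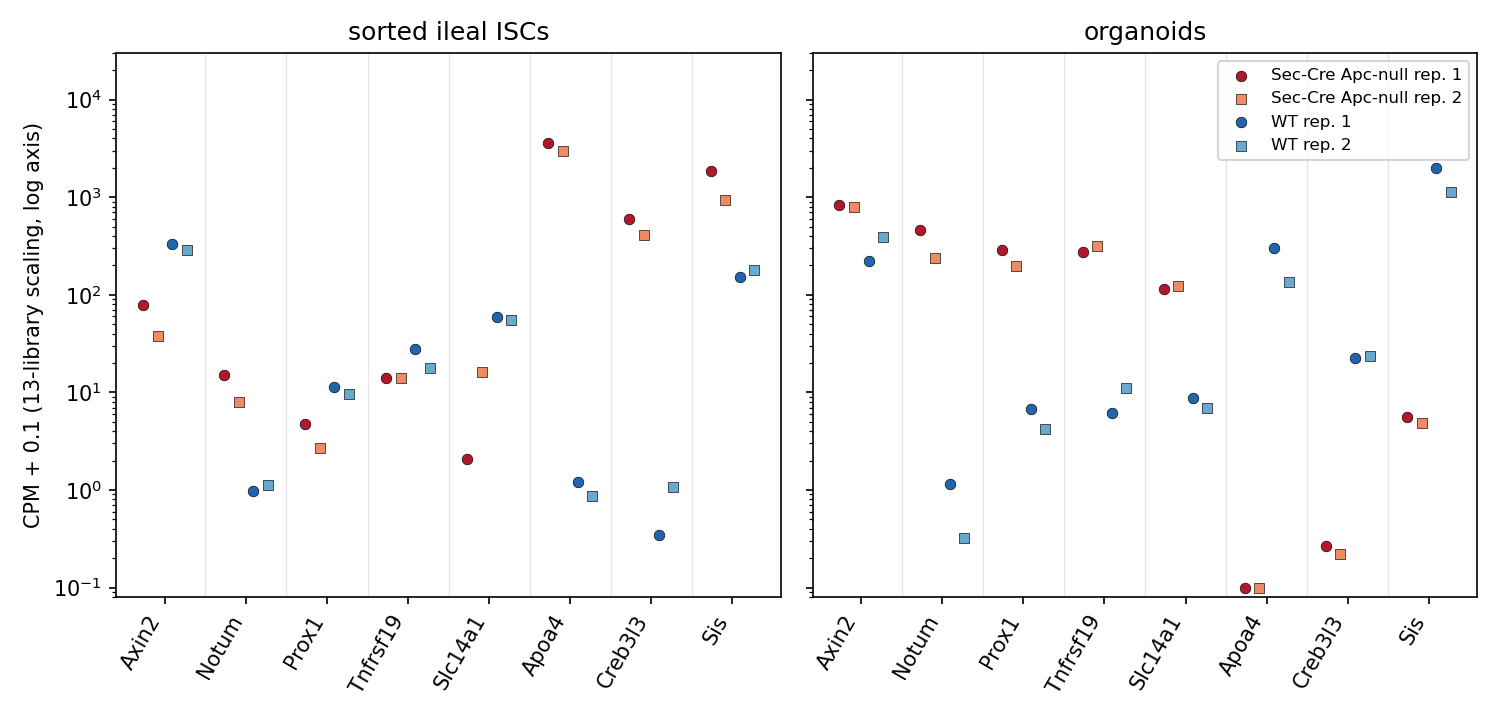
CPM + 0.1 (scaled over 13 libraries, log axis) of 5 Wnt or stem cell genes and 3 enterocyte genes in sorted ileal ISCs (left) and in organoids (right), 1 point per library, Sec-Cre Apc-null left of WT. Axin2, Prox1, Tnfrsf19 and Slc14a1 lie below WT in sorted Sec-Cre cells and above WT in Sec-Cre organoids, and Apoa4, Creb3l3 and Sis the other way round.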

How the data were processed

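RNA-seq counts of the 4 ileal ISC libraries, with 3 duodenal ISC and 6 organoid libraries as further samples, were used. The deposited values were whole-number read counts per gene that the authors made, 1 table per library of 24054 genes. Per the submitters' processing notes, STAR (without a version) and DESeq2 1.22.2 were used on mm10, and the annotation is not given in the sources used here. RNA was polyA and the kit non-directional per the labels' protocols, so that overlapping and antisense genes cannot be told apart. The column for both strands was used. In the duodenal libraries 98.5% to 98.9% of the gene reads lay on 1 strand, against 49.6% to 51.1% in the ileal ones, so that their preparation differed.

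The reads that name no gene (unmapped, multimapping, no feature, ambiguous) stayed out of library sizes. Multimapping reads were 11.1% and 9.31% in Sec-Cre and 5.20% and 5.76% in WT. In R 4.3.3, edgeR 4.0.16 fitted the 7 ISC libraries (filterByExpr with a minimum count of 10, TMM, quasi-likelihood, prior count 0.125), leaving 14577 genes and 4 residual degrees of freedom. The Benjamini-Hochberg threshold was 0.05. The interaction used all 13 libraries. DESeq2 1.42.0 and limma 3.58.1 (voom with sample weights) were alternatives, and the script was tested on simulated data. Floors are 3 counts and counting intervals exact 95% intervals, and both cover counting error only. Replicates of a group were not copies of 1 library: a chi-square of their counts over genes came to 1570 times its degrees of freedom in Sec-Cre and 31.3 times in WT.

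Other alternatives were other scalings and low count filters, the ileal or all libraries alone in the fit, Paneth genes left out, gene-wise offsets that remove the length trend, a replicate block, and each library left out in turn. GENCODE vM21 (GRCm38), which matched 98.5% of gene symbols and 723 of 726 list symbols, gave transcript lengths and shared 31-base words. Over 20% shared words was taken as uncertain. Promoters came from RefSeq on GRCm38.p6. The members, gene lists and alternatives were chosen with earlier results of these data known. The naming rule took Apc, Lgr5, Atoh1, Axin2, the 12 largest rises and falls that were called, without overlap and at a mean log2 CPM of at least 3 (without predicted, mitochondrial, antigen receptor and sex-linked genes), and up to 4 called genes per list, or the 2 most abundant where none was called. Genes of the Wnt, stem cell and Paneth lists could all be named, with Rn45s and Lars2 as quality values. Any other gene in the text, such as Alpi, Cldn4, Foxa2, Gzmb, Ptprc, Sis, Hoxb9 and the members that did not pass, was chosen after its values were seen. Some genes that the rule selects are not reported here. Whether replicate numbers pair the libraries is not known, since the labels state no pairing. The deviations of the 2 Sec-Cre and the 2 WT libraries correlated at 0.08, but that value rests on a single difference per group and cannot decide it.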

Additional observations from a re-analysis of the deposited data

Results flagged for a closer look

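The effect of the Sec-Cre driver on 6 genes differed between sorted ileal ISCs and organoids by the interaction term of the edgeR fit, given here as the log2 effect in ISCs minus that in organoids. It was -3.80 for Axin2, -5.67 for Notum, -7.18 for Prox1, -5.81 for Tnfrsf19 and -6.47 for Slc14a1, and 16.91 for Creb3l3. Prox1 had 4.68 and 2.61 CPM in Sec-Cre and 11.3 and 9.62 CPM in WT ISCs, and 290 and 199 CPM in Sec-Cre and 6.61 and 4.09 CPM in WT organoids. Tnfrsf19, a Wnt-responsive receptor of the TNF family, had 14.0 and 13.9 CPM in Sec-Cre and 28.1 and 17.6 CPM in WT ISCs, and 273 and 316.5 CPM in Sec-Cre and 6.05 and 10.9 CPM in WT organoids. Slc14a1, a urea transporter, had 1.97 and 16.0 CPM in Sec-Cre and 59.1 and 55.7 CPM in WT ISCs, and 115 and 124 CPM in Sec-Cre and 8.65 and 6.80 CPM in WT organoids. Creb3l3 had 0.169 and 0.118 CPM in Sec-Cre and 22.1 and 23.7 CPM in WT organoids. Material, culture, genotype and time after tamoxifen (21 days for ISCs, 10 days for organoids) differ together between these comparisons. Library quality and the sex of the sorted mice differ along with them. The parts of all these in the interaction were not tested.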

How the results depend on the processing

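The number of genes changed between Sec-Cre Apc-null and WT ISCs, 2417 by edgeR, was 3749 by DESeq2, 1336 with the 4 ileal libraries alone and 4291 with all 13 libraries. It was 2407 to 2556 with other scalings, filters and limma voom, and 1807 with a correction for transcript length. Leaving out 1 library at a time gave 153 (without WT replicate 2) to 3183 (without Sec-Cre replicate 2). The list members called, 179, became 107 with the 4 ileal libraries alone, 272 with all 13 libraries, and 19 to 240 with 1 library left out. The interaction with organoids, 4013 genes, gave 2513 to 4888 with 1 library left out. The replicate number as a block gave 2464 calls in the main comparison and 4637 in the interaction. Those numbers share nothing but the digit by the labels, and the deviations of the libraries correlated at 0.08 over 2 pairs. Signs turned for Lgr5 (0.05 with the length correction, 0.06 with the replicate block and that correction) and Smoc2 (0.06 and 0.05). With 1 library left out, Lyz1 ranged from -0.88 (without Sec-Cre replicate 1) to 5.17, Pla2g2a from -6.29 (without Sec-Cre replicate 1) to 5.24 and Matk from -1.90 (without Sec-Cre replicate 2) to 4.50. Of 99 called genes named or listed here, 19 passed in every alternative, 63 in all that kept each library and 80 with either Sec-Cre library left out. Where an ileal library was left out, the lone one of its group is assumed to vary like the other groups. The cause of these changes was not tested. Depth was lowest in Sec-Cre replicate 1, where a floor of 3 reads is 0.26 CPM without TMM scaling. The CPM values given here use its smaller effective size of 4457052 reads, on which 3 reads are a higher CPM.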

Other observations

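The 2 WT libraries differed in single alpha-defensin genes. Defa21 had 1 read in WT replicate 1 and 22894 in WT replicate 2, Defa22 had 28 and 27272, and Defa20 had 0 and 16128. In the Sec-Cre libraries Defa21 had 41183 and 6207 reads and Defa22 48892 and 7432. The related Defa5 had 10235 and 11059 reads in the WT replicates. These genes share most of their sequence with each other (84.0% of the 31-base words of Defa21 occur in other genes), and the difference was looked for after the values were seen.

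Hox and region genes differed between replicates as well. Hoxb9 had 1 and 511 reads in Sec-Cre and 1076 and 404 in WT. Tuft cell genes took 0.0148% and 0.180% of the counts in Sec-Cre replicates 1 and 2 and 0.0268% and 0.128% in WT replicates 1 and 2.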
